A study of Mus musculus with 2 samples.

Results

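Bone morphogenetic proteins (BMPs) are secreted ligands of the TGF-beta superfamily. The 10 genes described here are 4 ligand genes of that superfamily (Bmp2, Bmp4, Bmp7 and Gdf10), the type I receptor gene Bmpr1b, the signal transducer gene Smad9 and the 4 Id genes (Id1, Id2, Id3 and Id4). They were chosen by symbol from the 18510 genes of a deposited count table, with their counts in these same libraries already known, so their differences are given as a description and not as a test. All 10 were listed, and all 10 reached the mean level of 1 CPM (the count divided by the library's total and scaled up) that was asked of a gene before it was read. In all, 13989 genes reached it, called the tested genes below.

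BMPs bind a complex of type I and type II receptor kinases at the cell surface. The type I receptor then phosphorylates Smad1, Smad5 or Smad9, which join Smad4 and enter the nucleus. Id genes are classic targets of this signal in many cell types. Id proteins carry a helix-loop-helix domain without a DNA-binding region, so they take up E proteins and thereby hold back proneural bHLH factors. In the embryonic forebrain BMPs pattern the dorsal midline, and in neural progenitors they are known to favour astrocytes over neurons and oligodendrocytes. Gdf10, also called BMP3B, is a more distant ligand of the superfamily.

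RNA came from cultured neural stem cells, taken from the brains of CD-1 mice at embryonic day 12 and grown for 5 days in medium that keeps them dividing. The control group was infected with a lentivirus carrying a control plasmid, and the other group with a lentivirus carrying a plasmid for H3.3 knockdown. This histone H3 variant is encoded by H3f3a and H3f3b. Each group held 1 library, so the spread between cultures is unknown and no p-value is given. Both cultures had been through infection, and no uninfected culture was analysed here.

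Totals were 9184779 counts for the control and 8702855 for the knockdown library, and a tested gene had a median of 285 and 258 counts. The knockdown was partial at the RNA level, with H3f3b at 0.544 of the control (0.523 to 0.566) and H3f3a at 0.646 (0.601 to 0.695). All ranges in parentheses are exact 95% intervals that cover counting error only, not the spread between cultures, and PCR copies can make them too narrow even for that. A gene is said to have risen or fallen where its mean was at least 1 CPM, its ratio of knockdown over control was at least 2-fold and its interval left out 1. By that rule 2.54% of the tested genes fell and 3.82% rose. Tested genes had a median log2 ratio of -0.03, and the middle 50% of them lay between -0.29 and 0.26.

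**Figure D1:**
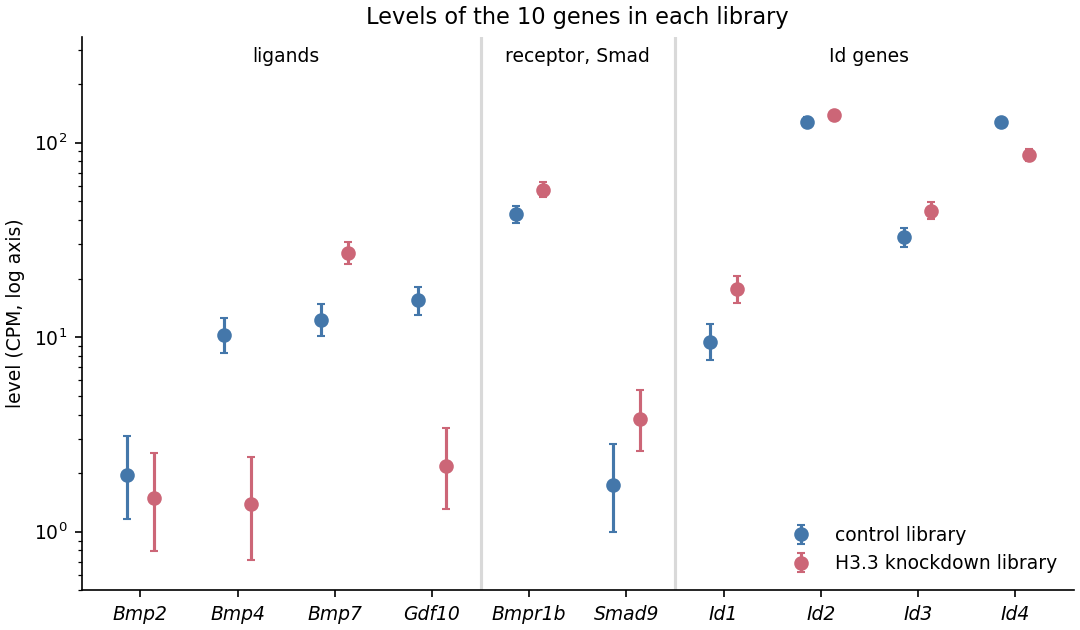
Level of each of the 10 genes in the control library (blue) and the H3.3 knockdown library (red), in CPM on a log axis; points are single libraries and bars are exact 95% Poisson intervals of the count. Bmp4 and Gdf10 lie far lower in the knockdown library, Bmp7 and Smad9 higher, and the Id genes differ less.

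The ligands went in different directions. Bmp4 and Gdf10 fell to about the same fraction of their control levels, Bmp7 rose, and Bmp2 did not pass the rule. These are 2 lower and 1 higher of 4 ligand genes, among 2 lower and 2 higher of the 10 genes as a whole. As the genes were chosen with this contrast known, nothing is read from these counts, which stand beside 2.54% lower and 3.82% higher among all tested genes. The authors' deposited table marks Bmp4, Gdf10, Bmp7 and Smad9 as differential, and it marks 5.84% of all listed genes.

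Bmp4 (ENSMUSG00000021835, chromosome 14 from 46383520 to 46390669, minus strand) is a ligand that signals through Bmpr1a and Bmpr1b. It had 94 control counts and 12 knockdown counts, which are 10.2 CPM (8.27 to 12.5) and 1.38 CPM (0.712 to 2.41). The intervals of the levels do not overlap. The knockdown level was 0.135 of the control (0.0672 to 0.247), a log2 ratio of -2.84. Gdf10 (ENSMUSG00000021943, chromosome 14 from 33923587 to 33935280, plus strand) had 142 control counts and 19 knockdown counts. Its level was 15.5 CPM (13.0 to 18.2) against 2.18 CPM (1.31 to 3.41), again without overlap. The ratio was 0.141 (0.0826 to 0.229) and the log2 ratio -2.79. Set against each other within a library, which removes the scaling, each count of Bmp4 came with 1.51 counts of Gdf10 in the control and 1.58 after knockdown. That ratio differed 1.05-fold between the libraries (0.458 to 2.49), an interval that reaches a change of more than 2-fold in either direction.

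Bmp4 and Gdf10 both lie on chromosome 14, in separate places. None of the first 2 tested genes on either side of them passed the rule. For Bmp4 these were Gm1821, Ddhd1, Cdkn3 and Cnih1, which lay 299 to 725 kb away and had log2 ratios between -0.19 and 0.11. For Gdf10 they were Mapk8, Vstm4, Zfp488 and Gprin2, which lay 31.8 to 984 kb away and had log2 ratios between -0.75 and 0.91. Among the genes taken in the same way beside the other members, Rbm38 near Bmp7 (log2 ratio -1.02) and E2f2 near Id3 (-1.89) fell, and Sertm1 near Smad9 (1.57) and Gbp7 near Bmpr1b (1.49) rose. These neighbours were picked by position alone, 4 for each of the 10 genes. Of all tested genes 2.54% fell and 3.82% rose.

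The sequences just before the starts of Bmp4 and Gdf10 are shown because these are the members that fell together, and those of Id2, Id3 and Id4 because this family is a target of the pathway and its members went in different directions. Each line is the 250 bases before the RefSeq start (GRCm38.p6), 5′ to 3′ on the strand of the gene. They are Bmp4 at chr14:46390670-46390919 (minus), Gdf10 at chr14:33923337-33923586 (plus), Id2 at chr12:25096093-25096342 (minus), Id3 at chr4:136143572-136143821 (plus) and Id4 at chr13:48260866-48261115 (plus). Capitals mark 2 motifs, GGCGCC, a GC-rich element that Smad proteins of the BMP branch can bind, and CANNTG, the E-box bound by the bHLH factors that Id proteins oppose.
Bmp4: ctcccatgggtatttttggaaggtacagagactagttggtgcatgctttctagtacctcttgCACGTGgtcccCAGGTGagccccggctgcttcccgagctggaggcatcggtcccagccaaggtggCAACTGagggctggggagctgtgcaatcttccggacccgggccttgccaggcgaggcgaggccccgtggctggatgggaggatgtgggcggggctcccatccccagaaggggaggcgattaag
Gdf10: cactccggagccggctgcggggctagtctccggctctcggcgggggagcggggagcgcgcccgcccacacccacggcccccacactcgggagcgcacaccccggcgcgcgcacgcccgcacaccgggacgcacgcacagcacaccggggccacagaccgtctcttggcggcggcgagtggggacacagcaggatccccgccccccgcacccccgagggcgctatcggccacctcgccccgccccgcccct
Id2: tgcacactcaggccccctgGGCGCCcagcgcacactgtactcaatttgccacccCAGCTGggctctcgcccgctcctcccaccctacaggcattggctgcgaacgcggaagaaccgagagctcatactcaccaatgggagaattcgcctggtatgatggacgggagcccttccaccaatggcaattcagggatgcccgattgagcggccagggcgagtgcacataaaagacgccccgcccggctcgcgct
Id3: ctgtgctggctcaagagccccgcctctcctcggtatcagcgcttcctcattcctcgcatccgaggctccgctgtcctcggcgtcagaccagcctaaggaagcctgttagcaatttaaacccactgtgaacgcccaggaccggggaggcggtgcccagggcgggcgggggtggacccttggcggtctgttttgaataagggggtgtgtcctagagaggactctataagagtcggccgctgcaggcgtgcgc
Id4: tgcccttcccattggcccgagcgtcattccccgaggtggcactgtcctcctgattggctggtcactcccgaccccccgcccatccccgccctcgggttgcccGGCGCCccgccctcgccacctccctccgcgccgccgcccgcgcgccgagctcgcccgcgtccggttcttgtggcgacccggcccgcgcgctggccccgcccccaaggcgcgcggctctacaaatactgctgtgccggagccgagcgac

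Both motifs read the same on either strand, and no match of one overlapped the other. The windows of the members that fell differ from each other in these letters. The Bmp4 window held 3 matches of CANNTG and none of GGCGCC, and the Gdf10 window neither. The Id2 window held 1 of each, the Id4 window 1 match of GGCGCC alone, and the Id3 window neither. Among the 32851 windows of the same length in the table, 66.2% held CANNTG and 9.59% held GGCGCC. Of 3 further motifs searched on both strands, GTCTAGAC, the palindromic Smad element, and TATAAA, the TATA box, were in none of the 5 printed windows, and 0.167% and 12.4% of all windows held them. GTCTG, which contains the core of that Smad element, had 2 matches in the Id3 window and 1 in that of Gdf10, against 42.2% of all windows with at least 1 match. The windows were rich in G and C, with 78.8% for Gdf10, 75.6% for Id4, 63.2% for Bmp4 and 62.8% for both Id2 and Id3, against a median of 52.4% over all windows. A match is a string of letters and not a shown binding site. The deposited gene starts equal the RefSeq starts for Bmp4, Gdf10 and Id2, and differ from them for Id3 and Id4. By the deposited positions the Id3 window lies inside the gene, and the Id4 window lies wholly before it. The Smad9 window, not printed, held 1 match of GGCGCC and 1 of CANNTG, and none of the other 3 motifs.

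Bmp7 (ENSMUSG00000008999, chromosome 2 from 172868012 to 172940321, minus strand) encodes a ligand made by the dorsal midline, the choroid plexus and the meninges of the developing brain. It had 113 control counts and 235 knockdown counts, or 12.3 CPM (10.1 to 14.8) and 27.0 CPM (23.7 to 30.7). The knockdown library was higher without overlap of the intervals, at 2.19-fold (1.75 to 2.77) and a log2 ratio of 1.13. Bmp2 (ENSMUSG00000027358, chromosome 2 from 133552159 to 133562885, plus strand) is the closest relative of Bmp4. It was sparse, with 18 and 13 counts, or 1.96 CPM (1.16 to 3.10) and 1.49 CPM (0.795 to 2.55). The intervals overlap, and the ratio of 0.762 (0.343 to 1.65) leaves room for a difference in either direction at this depth.

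The mix of these 4 transcripts therefore shifted. Of the 367 control reads from these genes, Gdf10 held 38.7% (33.7 to 43.9), Bmp7 30.8% (26.1 to 35.8), Bmp4 25.6% (21.2 to 30.4) and Bmp2 4.90% (2.93 to 7.64). Of the 279 knockdown reads, Bmp7 held 84.2% (79.4 to 88.3) and none of the other 3 more than 6.81%. Counted per kilobase of exon, which makes levels comparable between genes, Bmp4 was at 4.55 CPM per kb in the control library, Bmp7 at 3.06 and Gdf10 at 2.97. In the knockdown library Bmp7 led at 6.72 CPM per kb, and Bmp4, Bmp2 and Gdf10 lay at 0.613, 0.420 and 0.419 with overlapping intervals. Reads of Bmp7 per read of Bmp4 went from 1.20 to 19.6, a 16.3-fold difference (8.41 to 33.8) that does not depend on scaling. Summed over the 4 genes the level was 11.1 CPM per kb for the control and 8.17 after knockdown.

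**Figure D2:**
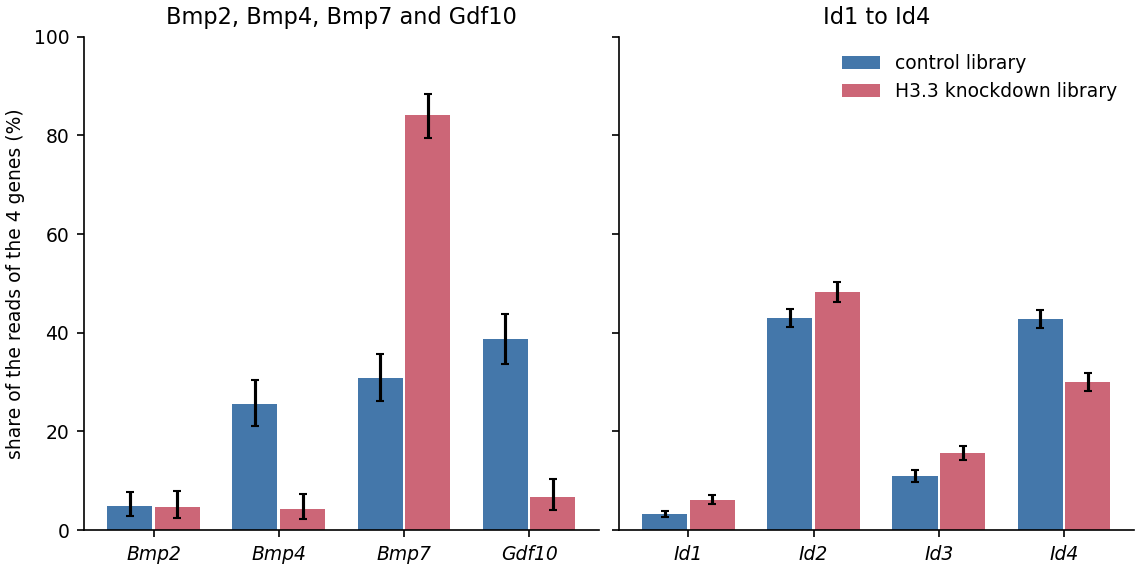
Share of the summed reads of Bmp2, Bmp4, Bmp7 and Gdf10 (left) and of Id1 to Id4 (right) held by each gene, in percent, in the control (blue) and H3.3 knockdown (red) library; bars are exact 95% binomial intervals. Bmp7 holds 30.8% of the control ligand reads and 84.2% after knockdown, and Id4 goes from 42.8% to 30.1% of the Id reads.

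Other ligands of the superfamily were mostly low or unlike Bmp4. Of 19 further BMP and GDF genes listed for this purpose, 12 had counts and 5 were tested, with 1 lower and 1 higher and a median log2 ratio of -0.05. The 5 include Bmp1 (718 and 658 counts), which despite its name encodes a metalloprotease and not a ligand. Its log2 ratio of -0.05 is the median. Bmp6, a ligand of the Bmp7 subgroup, fell from 49 to 19 counts (0.409, 0.228 to 0.708). Gdf15, a stress-induced member and a known p53 target, rose from 6 to 20 counts (3.52-fold, 1.36 to 10.7). At 0.653 CPM in the control, Gdf15 reached the minimum mean only through the knockdown library, so its direction was partly set by that filter. None of the 5 tested activin and TGF-beta ligands passed the rule, and their median was 0.35. The most abundant of them, Inhbb and Tgfb2, had 0.804 (0.694 to 0.931) and 1.45 (1.23 to 1.70) of the control level.

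None of the tested receptors passed the rule. Bmpr1b (ENSMUSG00000052430, chromosome 3 from 141837136 to 142169425, minus strand), a type I receptor, had 392 and 497 counts. Its level was 42.7 CPM (38.6 to 47.1) in the control and 57.1 CPM (52.2 to 62.4) after knockdown, 1.34-fold (1.17 to 1.53), which did not pass the rule. Its paralog Bmpr1a, which was chosen for mention after its values were seen, was more abundant per kilobase, at 29.4 CPM per kb in the control against 7.16 for Bmpr1b, and 27.1 against 9.58 in the knockdown library. Of 17 other receptor and co-receptor symbols, not all of them distinct genes, 10 were tested, none passed the rule, and the median log2 ratio was -0.05. Tgfbr3, at 3 and 12 counts, was under the minimum mean and not tested. The type II receptor Bmpr2 stood at 0.987 of the control (0.934 to 1.04), and Rgma, a BMP co-receptor and axon guidance protein, at 0.764 (0.719 to 0.810).

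Smad9 (ENSMUSG00000027796, chromosome 3 from 54755582 to 54801257, plus strand), the least abundant of the 3 Smads that BMP receptors phosphorylate, rose from 16 to 33 counts. That is 1.74 CPM (0.996 to 2.83) against 3.79 CPM (2.61 to 5.33), intervals that overlap slightly, and a 2.18-fold ratio (1.16 to 4.24). With 5 counts added to each library its log2 ratio was 0.93 and it no longer passed. The other 2 of these Smads, named after their values were seen, were far more abundant per kilobase. Smad5 had 23.0 and 19.9 CPM per kb and Smad1 10.5 and 12.1, against 0.325 and 0.706 for Smad9. Among 15 other Smads and Smad regulators 14 were tested, none passed the rule and the median log2 ratio was -0.11. The most abundant were Zeb2, a Smad-binding repressor, at 0.584 of the control (0.553 to 0.617), and Ski, a co-repressor of Smads, at 0.992 (0.929 to 1.06).

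Extracellular regulators of BMPs included genes in both directions. Of 20 tested antagonists and modulators 3 rose and 1 fell, with a median log2 ratio of 0.02. Dand5, an antagonist of the DAN family, rose from 30 to 69 counts (2.43-fold, 1.56 to 3.86), and Chrdl1, a chordin-like antagonist, from 35 to 68 (2.05-fold, 1.34 to 3.18). Tll1, a metalloprotease that cleaves chordin, rose from 13 to 37 counts, a log2 ratio of 1.55 with a ratio interval of 1.56 to 6.16. Htra1, a secreted serine protease known to dampen TGF-beta family signals, fell from 215 to 80 counts (0.393, 0.300 to 0.510). With a minimum of 10 CPM none of the 3 that rose was read, and Chrdl1 no longer passed with 5 counts added.

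**Figure D3:**
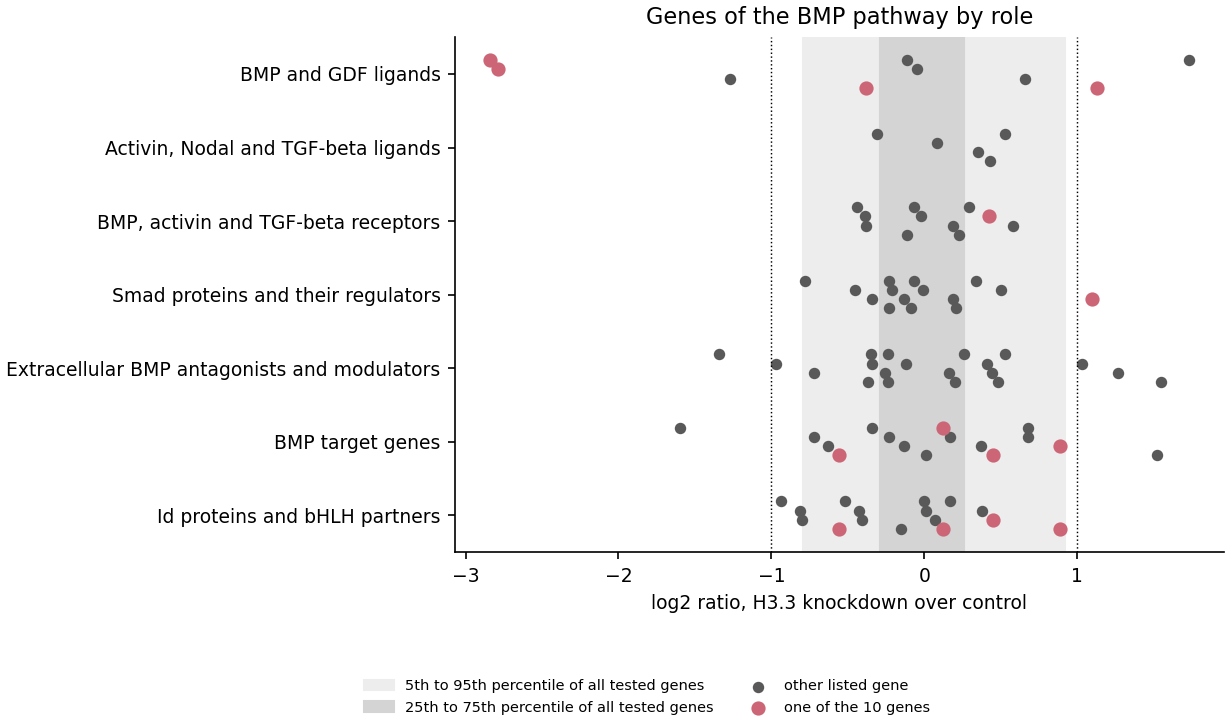
Log2 ratio of H3.3 knockdown over control for each tested gene of 7 lists of the pathway, by role; red points are the 10 genes, grey points the other listed genes, shaded bands the ranges of all tested genes and dotted lines 2-fold. The ligand row runs from -2.84 for Bmp4, chosen with this contrast known, to 1.73 for Gdf15, and it includes Bmp1, a metalloprotease, at -0.05. The tested receptors other than the 10 genes all lie within 2-fold.

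None of the 4 Id genes passed the rule, and their levels did not move together. Id1 and Id3 were higher in the knockdown library, Id2 was nearly level and Id4 was lower. The intervals of Id1, Id3 and Id4 leave out 1 by a clear margin, and that of Id2 begins at 1.00 as rounded. By reads Id2 and Id4 were the most abundant of them in both libraries. Per kilobase Id2 was highest and Id1 lowest in both, while Id4 stood above Id3 in the control library and their intervals overlapped in the knockdown library.

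Id1 (ENSMUSG00000042745, chromosome 2 from 152736251 to 152737410, plus strand) had 87 control counts and 153 knockdown counts. Its level was 9.47 CPM (7.59 to 11.7) against 17.6 CPM (14.9 to 20.6), without overlap, and its ratio 1.86 (1.42 to 2.44) was short of 2-fold. Id3 (ENSMUSG00000007872, chromosome 4 from 136143497 to 136145755, plus strand), which often goes with Id1 in endothelial and progenitor cells, had 299 and 388 counts. This was 32.6 CPM (29.0 to 36.5) against 44.6 CPM (40.3 to 49.2) and a ratio of 1.37 (1.17 to 1.60). The knockdown library was higher for both genes. The reads of Id1 per read of Id3 changed 1.36-fold, with an interval of 0.991 to 1.86 that just reaches 1.

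Id2 (ENSMUSG00000020644, chromosome 12 from 25093801 to 25096092, minus strand) had 1168 and 1204 counts, or 127 CPM (120 to 135) and 138 CPM (131 to 146). The intervals overlap, and the ratio was 1.09 (1.00 to 1.18). Id4 (ENSMUSG00000021379, chromosome 13 from 48261427 to 48264036, plus strand), which neural progenitors express and which can act against other Id proteins, had 1165 and 750 counts. It went from 127 CPM (120 to 134) to 86.2 CPM (80.1 to 92.6), without overlap, at 0.679 of the control (0.619 to 0.745) and a log2 ratio of -0.56. Id2 and Id4 thus had nearly equal reads in the control library and differed in the knockdown library, where Id2 had 1.61 reads for each read of Id4.

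The makeup of the Id family shifted while its sum moved little. Per kilobase the 4 genes summed to 111 CPM per kb for the control and 119 after knockdown. Without division by length they summed to 296 and 287 CPM, so the direction of this small difference depends on the measure. Id4 held 42.8% of the Id reads in the control (41.0 to 44.7) and 30.1% after knockdown (28.3 to 31.9). Id1 went from 3.20% (2.57 to 3.93) to 6.13% (5.22 to 7.15), Id3 from 11.0% (9.84 to 12.2) to 15.6% (14.2 to 17.0) and Id2 from 43.0% (41.1 to 44.8) to 48.3% (46.3 to 50.2). Relative to Id4 in the same library, Id1 was 2.73-fold higher after knockdown (2.05 to 3.65), Id3 2.02-fold (1.68 to 2.41) and Id2 1.60-fold (1.41 to 1.81). These ratios do not depend on how the libraries are scaled. Per kilobase, Id2 led in both libraries at 52.2 and 56.7 CPM per kb. Id4 came next in the control at 33.0, ahead of Id3 at 18.2 and Id1 at 8.17, with no overlap of their intervals. In the knockdown library Id3 at 24.9 (22.5 to 27.5) and Id4 at 22.4 (20.8 to 24.1) overlapped, and Id1 stood at 15.2. Over all 10 genes, the control levels per kilobase ran from Id2, Id4, Id3, Id1, Bmpr1b, Bmp4, Bmp7, Gdf10 and Bmp2 down to Smad9. Id1 and Bmpr1b, Bmp4 and Bmp7, Bmp7 and Gdf10, and Bmp2 and Smad9 were neighbours whose intervals overlapped. In the knockdown library the order was Id2, Id3, Id4, Id1, Bmpr1b and Bmp7, followed by Smad9, Bmp4, Bmp2 and Gdf10, each of which overlapped the next.

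Other BMP targets showed no shared direction. Of 12 tested targets outside the Id family 1 rose and 1 fell, 6 log2 ratios lay above 0 and 6 below, and the median was -0.06. Gata3, a transcription factor, rose from 10 to 28 counts (2.96-fold, 1.39 to 6.82). Dlx5, a homeobox factor of ventral forebrain interneurons and a BMP target in bone, fell from 536 to 167 counts (0.329, 0.275 to 0.392). The gene ontology column of the deposited table assigns 22 tested genes to BMP signalling, and this set was added once values were known. Smad9 rose, Dlx5 fell and the median log2 ratio was 0.02. The set does not hold Bmp4, Bmp7 or Gdf10.

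Among the bHLH factors that Id proteins act on, 12 further tested genes are reported here, none of which passed the rule, and their median log2 ratio was -0.28, with 8 below 0 and 4 above. The most abundant was Olig1, a factor of oligodendrocyte precursors, at 1.30 of the control (1.26 to 1.34). The E proteins are direct partners of Id proteins, and Tcf3 and Tcf12 were named after their values were seen. Tcf3 stood at 0.569 of the control (0.531 to 0.610), Tcf12 at 0.755 (0.719 to 0.792) and Tcf4 at 0.999 (0.964 to 1.04). Over all 7 lists, 72 distinct tested genes other than the 10 are reported, of which 5 rose (6.94%) and 3 fell (4.17%), beside 3.82% and 2.54% of all tested genes. Their median log2 ratio was -0.06, near the -0.03 of all tested genes. Of those that rose, Gdf15 reached the minimum mean only through the knockdown library.

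**Figure D4:**
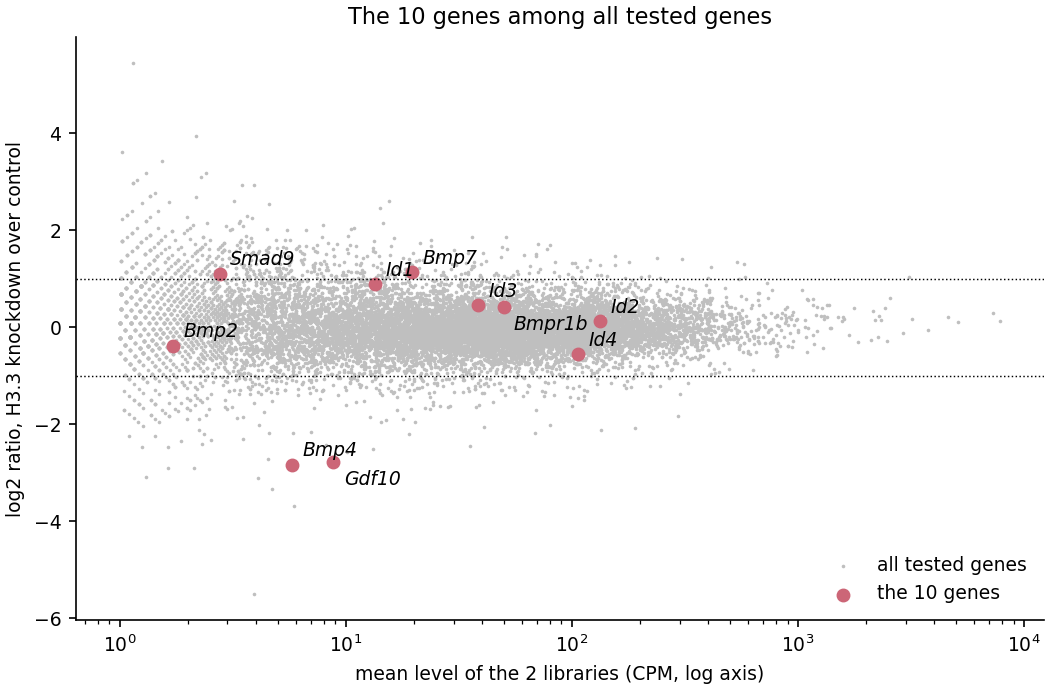
Log2 ratio of H3.3 knockdown over control against the mean level of both libraries (CPM, log axis) for all 13989 tested genes (grey) and the 10 genes (red, named); dotted lines mark 2-fold. Bmp4 and Gdf10 lie at the lower edge of the cloud at -2.84 and -2.79, and the abundant Id2 and Id4 lie within it.

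Several of these genes are also made by cells other than neural progenitors, so markers of such cells are given beside them. In a bulk library, fewer cells of a type and less RNA per cell cannot be told apart. Neural progenitor markers were abundant, with all 10 tested, a summed level of 5239.3 CPM for the control and 5085.1 CPM after knockdown, and Vim the highest at log2 ratio -0.01. Of these, 8 had a log2 ratio below 0 and the median was -0.37. Sox1 fell to a log2 ratio of -1.12, and Pax6 stood at 0.536 of the control (0.478 to 0.599), short of the rule. Neuronal markers were as abundant, at 5686.3 and 7510.6 CPM, led by Map2 (log2 ratio 0.33), so the cultures held neuronal RNA as well. Of these 10 markers 3 rose, namely Gap43, Snap25 and Nefl, at 1.30, 1.29 and 1.37 on the log2 scale. The median was 0.54, with 7 above 0 and 3 below, of which Syt1 was lowest at -0.77.

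Several markers of the oligodendrocyte lineage fell along with Bmp4 and Gdf10. Bmp4 is known to be expressed in cells that have just committed to become oligodendrocytes. Of the 10 markers reported, all tested and none at 0, 5 fell and 1 rose, and the median log2 ratio was -0.69. Enpp6 went from 71 counts to 1, Myrf from 554 to 95, Bcas1 from 2001 to 436 and Sox10 from 1444 to 493. At 0.115 CPM after knockdown, Enpp6 reached the minimum mean only through the control library. The marker that rose was Mog, from 23 to 47 counts (2.16-fold, 1.28 to 3.72). Of the 10 log2 ratios 4 lay above 0 and 6 below. The early marker Olig1, at a log2 ratio of 0.38, did not pass, and the summed level of the list, which Olig1 leads, was 2169.1 CPM for the control and 2010.0 CPM after knockdown. Whether these cells carried the Bmp4 or Gdf10 reads was not tested. Of 7 tested astrocyte markers S100b alone fell, from 68 to 7 counts, and the most abundant, Aldoc, stood at a log2 ratio of -0.01. At 0.804 CPM after knockdown, S100b too reached the minimum mean only through the control library. Gfap was just short of the rule, at 0.503 of the control (0.440 to 0.574). Of the 7 log2 ratios 3 lay above 0 and 4 below. Their summed level was 1131.0 and 1191.6 CPM.

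Markers of cells that make Bmp7 or Id1 and Id3 had far lower summed levels than the neural progenitor markers. In the control library Prrx1 (33.5 CPM), Otx2 (27.9) and Pdgfrb (22.8) still stood above Bmp7 (12.3). In the knockdown library they stood below it, at 16.2, 18.0 and 5.86 CPM against 27.0. Markers of the choroid plexus and of mesenchyme went both ways. The tested endothelial and microglial genes all had log2 ratios above 0, but all except Kdr were under 1 CPM in the control library. Those genes reached the minimum mean only through the knockdown library, so their sign was partly set by that filter. Among untested microglial genes Cx3cr1 (5 to 1 counts) and C1qb (4 to 1) were lower, and Csf1r (2 to 4) and Tyrobp (2 to 5) higher. Of 10 genes of the choroid plexus and cortical hem 8 were listed and 4 tested. Ttr rose from 4 to 38 counts, or from 0.436 to 4.37 CPM, so it too reached the minimum mean only through the knockdown library. Otx2, the most abundant, had a log2 ratio of -0.63, and the list summed to 36.1 CPM for the control and 32.5 CPM after knockdown. In the list for meninges, mesenchyme and pericytes 6 of 12 were tested, of which the collagens Col3a1 (31 to 108 counts), Col1a2 (33 to 83) and Col1a1 (54 to 107) rose and Pdgfrb (209 to 51) and Prrx1 (308 to 141) fell. The summed level was 72.2 and 61.2 CPM. Of 8 endothelial genes 3 were tested, with a median log2 ratio of 0.70 and sums of 7.19 and 13.6 CPM. Kdr had 55 and 85 counts, Flt1 had 0 and 20, and Cdh5, Cldn5 and Tie1 had no row. Microglial markers summed to 3.59 and 5.75 CPM, with C1qa at 5 and 14 counts and Aif1 at 7 and 13, and the single erythroid gene with counts, Alas2, had 1 and 3. The part of any of these cells in the Bmp7, Id1 and Id3 levels was not tested.

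**Figure D5:**
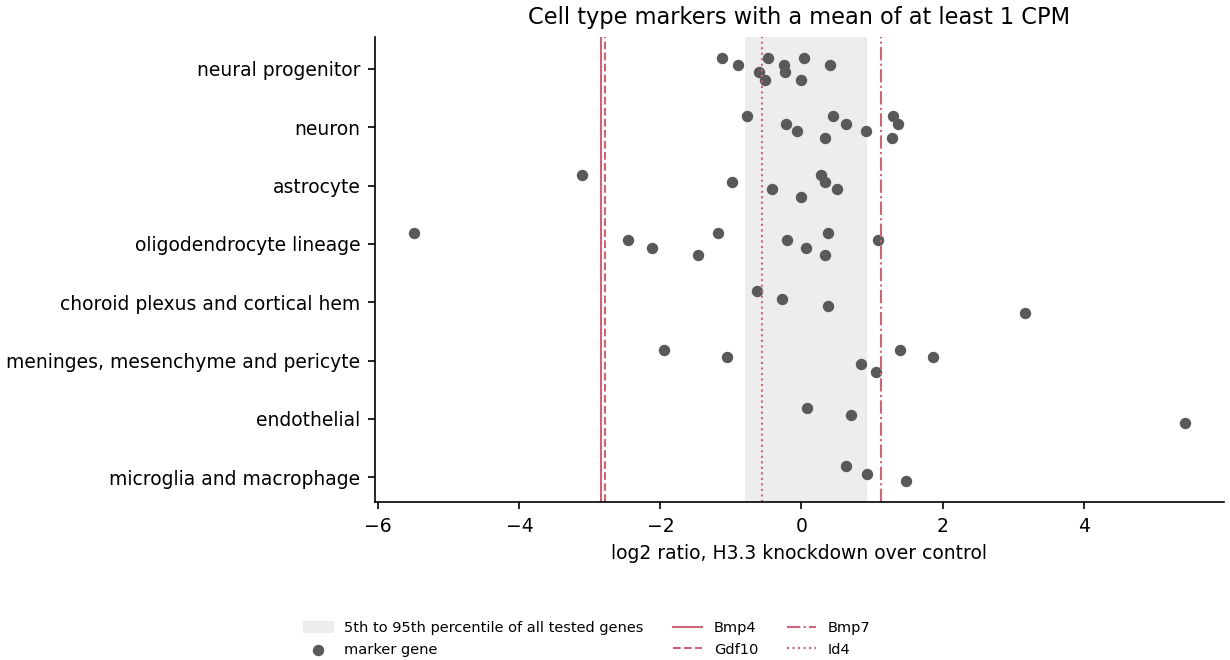
Log2 ratio of H3.3 knockdown over control for the tested markers of 8 cell types; the shaded band is the 5th to 95th percentile of all tested genes, and red lines mark Bmp4, Gdf10, Bmp7 and Id4. The oligodendrocyte row reaches farthest below 0, to -5.50 for Enpp6, and the endothelial point at the right is Flt1, with 0 control counts and a ratio set by the 0.5 count added.

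The exons of Bmp4 overlap those of Gm15217, and the exons of Id4 those of A330033J07Rik and Gm49291, each on the opposite strand, in the GENCODE vM21 annotation. The sources used here do not say whether counting used strand, and without it reads of such partners cannot be told apart. A330033J07Rik had 8 and 10 counts, against 1165 and 750 for Id4.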

How the data were processed

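RNA-seq libraries of 1 control and 1 H3.3 knockdown culture were described from 1 deposited table. Its counts are whole reads per gene as deposited by the authors, with no normalization, per the file headers. Its normalized columns are CPM by the authors, each a count over a library constant. The authors give their ratio as a fold change and also as log2. The p-values come from a test by the authors that no source used here names. Only the authors' marks were used from these. Tools named in the submitters' processing notes are HTSeq 0.6.0, TopHat2 2.0.12 and Bowtie 1.0.1, and the sources used here name no build. The deposited positions of 7 of the 10 genes equal GENCODE vM21 (GRCm38). 1 line of the table was not analysed here.

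Counts were scaled to the column total over 18510 genes, with symbols matched for 18423 of the Ensembl IDs. Log2 ratios used 0.5 added counts, and ratios and intervals none. Intervals are exact conditional (Clopper-Pearson) for ratios, exact Poisson for levels, exact binomial for shares and exact conditional odds ratios for reads of 1 gene per read of another. With 3 counts as the limit, a count of 0 allows up to 0.327 CPM for the control and 0.345 CPM for the knockdown. Exon length is the union of annotated exons. The rule was tested on simulated data. The 10 genes and the lists were chosen with earlier results of these data known. Named genes are the 10, H3f3a, H3f3b, up to 8 list genes past the rule or else the 2 most abundant, and each marker list's most abundant gene with up to 4 past the rule. Tcf3, Tcf12, Bmp1, Bmpr1a, Smad1, Smad5, Tgfbr3, Cer1, Col1a1, Pax6, Syt1, Gfap, Mog, Cx3cr1, C1qb, Csf1r, Tyrobp and the neighbours fall outside this. Some list genes are not reported here and are left out of the lists' counts, medians and sums. Promoter windows came from RefSeq, whose table holds 7 of the 10 genes. Alternatives were other scalings (edgeR 4.0.16 TMM, DESeq2 1.42.0 size factors, the total without the 50 most abundant genes), filters, added counts and a 1.5-fold limit, with scipy 1.17.1.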

Additional observations from a re-analysis of the deposited data

How the results depend on the processing

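Of the 7 alternatives, 3 scalings shift every gene alike, 1 adds 5 counts, and the other 3 change only which genes are read or called. Under the 4 that can move a log2 ratio each of the 10 genes kept its sign, with values from -2.85 to -2.46 for Bmp4, -2.80 to -2.54 for Gdf10, 1.10 to 1.15 for Bmp7 and -0.57 to -0.54 for Id4. With a minimum of 10 CPM, 0 of the 10 fell and 1 rose, because Bmp4, Gdf10 and Smad9 are under that mean, and 0 of the other pathway genes rose. With no minimum, 7 other pathway genes rose in place of 5, adding Cer1 (0 and 7 counts) and the receptor gene Tgfbr3 (3 and 12). With 5 counts added to each library 1 of the 10 rose, Bmp7. With a limit of 1.5-fold, Id1 also rose and 9 other pathway genes fell in place of 3. Over all genes, 174 fell and 169 rose with the 10 CPM minimum, against 355 and 535. With no minimum these were 410 and 642, and with the 1.5-fold limit 1147 and 1261. No paired analysis was possible because each group held 1 library. Low counts limit Bmp2 and Smad9 in both libraries and Bmp4 and Gdf10 in the knockdown library, at 12 to 33 counts.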
